A study of Caenorhabditis elegans with 12 samples.

Results

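The neuropeptide genes of *C. elegans* described here are the protein-coding genes whose symbol begins with *flp-* (FMRFamide-like peptides) or *nlp-* (neuropeptide-like proteins) followed by a number. The rule used names only and no measured value. It found 31 *flp* and 71 *nlp* genes, 102 of the 20447 protein-coding genes in the tables. Their RNA was measured in a study that developed vIPR, a pulldown in which worms are crosslinked, lysed and probed with biotinylated DNA oligonucleotides to retrieve 1 chosen mRNA. The probes were directed at *gld-1*, *lin-41*, *alg-1* or a *gfp* transgene, and none at a neuropeptide gene.

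12 libraries of young adult hermaphrodite cultures were sequenced, with 1 library per condition. Strain BS1080 carries the transgene *gld-1::gfp*. Its total RNA was extracted directly with Trizol, and pulldown inputs (lysate before the probes) were sequenced after PAR-XL and after cXL. Strain DG3913 (*gfp::lin-41*) and the wild type N2 each gave a cXL input. The 7 elutions came from *gld-1::gfp* worms after PAR-XL, PFA-XL and cXL, from *gfp::lin-41* worms after cXL, and from N2 worms after cXL with probes against *alg-1*, *gld-1* or *lin-41*. PAR-XL uses 4-thiouridine (4SU) and UV light of long wavelength, cXL UV light of short wavelength, and PFA-XL paraformaldehyde. Worms for PAR-XL were fed 4SU in liquid culture and harvested later than worms for cXL and PFA-XL, which grew on plates, so crosslinking, culture, labelling and harvest cannot be told apart in a comparison of these inputs. The total RNA library is titled as PAR-XL, its description names it as not crosslinked, and the labels do not say whether those worms had 4SU.

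Neuropeptides are cut from larger precursors. In worm neurons the proprotein convertase EGL-3, with its chaperone SBT-1, cleaves the precursor, the carboxypeptidase EGL-21 trims the fragments, and amidating enzymes such as PGHM-1 finish the C terminus. The peptides travel in dense core vesicles and mostly act on G protein-coupled receptors. *flp* genes are used mainly by neurons. The *nlp* genes are a mixed family that also holds peptides of the intestine and antimicrobial peptides of the epidermis.

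Values below are estimated counts and TPM (a transcript abundance corrected for length), rescaled to a sum of 1000000 over worm RNAs without ribosomal RNA and, in elutions, without the target. The inputs and total RNA held between 12227300 and 26695700 estimated counts after this step, and the elutions between 130297 and 3480640. No condition was replicated, so no p-value is given. Intervals are 95% intervals and cover counting error only. The reads carry no molecular identifiers, so they cannot be taken as independent molecules.

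The 102 genes were short and often on the X chromosome. Their longest transcripts had a median of 528 bases (200 to 1226), against 1085 bases for all protein-coding genes. The *flp* median was 587 bases and the *nlp* median 493 bases. Chromosome X held 32 members, or 31.4%, against 13.8% of all protein-coding genes. These were 13 *flp* and 19 *nlp* genes. Chromosome V held 18 of the *nlp* genes and 3 of the *flp* genes, together 20.6% of the members, against 25.3% of all protein-coding genes. Of the 102 genes, 17 overlapped a protein-coding gene on the opposite strand and 1, *nlp-12*, overlapped one on the same strand. Whether the counting used strand is not given in the sources used here, so reads of such pairs cannot be told apart. *flp-1*, *flp-28*, *nlp-24* and *nlp-36* are among the genes with an antisense neighbour.

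All 102 genes had at least 1 estimated count in total RNA. The PAR-XL input held 100 of them, and the cXL inputs 91 (*gld-1::gfp*), 87 (*gfp::lin-41*) and 83 (N2). 82 genes were counted in all 5 of these libraries. The 10 genes without a count in any cXL input were all *nlp* genes, from *nlp-61* with a transcript of 200 bases to *nlp-39* with 453 bases. Members took 0.476% of the TPM in total RNA, 0.339% in the PAR-XL input and 0.111% to 0.146% in the 3 cXL inputs. In these whole-worm libraries, fewer cells of a type and less RNA per cell cannot be told apart.

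The *flp* genes were spread over a narrower range of levels than the *nlp* genes. *flp-1*, which is made in the AVK interneurons and acts in locomotion, was the highest *flp* gene by mean TPM over the 5 libraries. It had 120 TPM in total RNA, 135 TPM in the PAR-XL input, and 25.2, 35.4 and 23.4 TPM in the cXL inputs of *gld-1::gfp*, *gfp::lin-41* and N2 worms. *flp-28* came next with 116, 118, 38.3, 37.9 and 26.3 TPM in the same order. Both genes were higher in total RNA and PAR-XL input than in any cXL input. The next genes were *flp-14*, *flp-9*, *flp-12*, *flp-16*, *flp-6*, *flp-24*, *flp-22* and *flp-18*, which codes for ligands of the receptors NPR-1 and NPR-5. Their means over the 5 libraries ran from 40.9 TPM (*flp-14*) to 26.1 TPM (*flp-18*), and neighbours in this order differed by less than each gene did between libraries. The lowest *flp* gene, *flp-23*, had 5.70 TPM in total RNA and a mean of 2.14 TPM.

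*nlp-40* was the highest member of all. It is expressed in the intestine, where its peptide is released to drive the expulsion step of defecation. It had 305 TPM in total RNA, 310 TPM in the PAR-XL input, and 127, 165 and 179 TPM in the cXL inputs of *gld-1::gfp*, *gfp::lin-41* and N2 worms. *nlp-36* followed with 329, 177, 141, 185 and 153 TPM in the same order of libraries, and its total RNA value exceeded that of *nlp-40*. *nlp-24* had 257, 102, 85.0, 115 and 71.9 TPM. These 3 genes kept high levels in every cXL input. *nlp-49*, whose peptide acts through the receptor SEB-3 in arousal, differed from them, with 189 and 120 TPM in total RNA and PAR-XL input and 21.5, 34.9 and 23.7 TPM in the cXL inputs. *nlp-33* had 272, 152, 39.3, 30.4 and 10.6 TPM. At the other end, 5 members had a mean under 1 TPM, among them *nlp-22*, a sleep-promoting peptide gene of larvae, with a mean of 0.12 TPM.

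**Figure D1:**
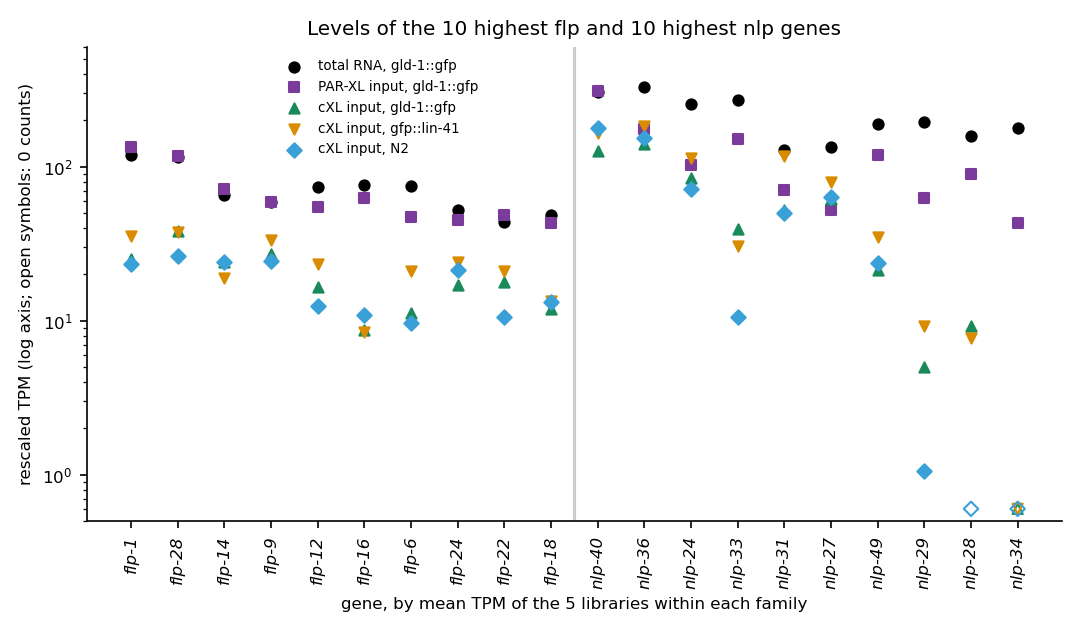
Rescaled TPM (log axis) of the 10 *flp* and 10 *nlp* genes with the highest mean over total RNA and the 4 inputs, 1 point per library. Open symbols mark 0 counts, which *nlp-34* had in all 3 cXL inputs and *nlp-28* in that of N2. For all 10 *flp* genes the total RNA and PAR-XL input lie above every cXL input, while *nlp-36*, *nlp-24*, *nlp-31* and *nlp-27* do not show this.

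The order of levels among the 102 genes was much alike between libraries. Spearman's rho across genes was 0.96 between total RNA and PAR-XL input, 0.84 between the PAR-XL and cXL inputs of *gld-1::gfp* worms, and 0.90 to 0.94 between cXL inputs. These values are descriptions over 102 genes that share libraries, and genes are not replicates.

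To compare 2 libraries, the ratio of TPM of each gene was divided by the median ratio of all protein-coding genes that passed a filter of 10 expected counts. This is called the relative ratio, and a gene is called raised above 2 and lowered below 0.5. The median ratios that were divided out are given with each comparison. The comparisons share libraries: the PAR-XL input enters those with total RNA, with the cXL input and with the PAR-XL elution, and the N2 input enters 5 comparisons.

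The first comparison sets the lysate after PAR-XL beside RNA extracted directly. Most neuropeptide RNAs of *gld-1::gfp* worms lay within 2-fold between the PAR-XL input and total RNA. The median ratio of all genes was 0.812. Of 93 members that passed the filter, 1 was raised (2.99% of 15295 genes tested) and 7 were lowered (6.05% of all genes), and the median relative ratio was 1.01. The 31 *flp* genes had a median of 1.17 and the 62 *nlp* genes that passed had 0.916. *flp-32*, with 25.1 TPM in the input and 14.4 TPM in total RNA, was the raised gene at 2.15 (1.62 to 2.86). The lowest ratios were those of *nlp-34* (0.297, interval 0.228 to 0.387), *nlp-29* (0.391, 0.340 to 0.449) and *nlp-45* (0.427, 0.226 to 0.808), of which *nlp-45* had only 14 counts in the input. The transcripts of *nlp-34* and *nlp-29* have 260 and 368 bases, and 17.8% of all genes under 400 bases were lowered. The fragment length behind the quantification, described below, was 220 bases for the input and 150 for total RNA. The part of length in the values of these genes and families was not tested. *flp-10*, whose peptides act on the receptor EGL-6 to hold back egg laying, was at 0.499 with 30.5 against 75.4 TPM. Under a CPM scale, without the correction for transcript length, 16 members were lowered, where 6.88% of all genes were, and none was raised, where 2.82% were.

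The comparison of the PAR-XL input with the cXL input of the same strain gave higher levels after PAR-XL for most neuropeptide RNAs. The median ratio of all genes was 1.34. Of 82 members that passed the filter, 61 were raised, where 22.1% of all 14263 genes tested were, and 0 were lowered, where 8.33% of all genes were. By family, 24 of 30 *flp* and 37 of 52 *nlp* genes that passed were raised, with median relative ratios of 2.74 and 2.93. The interval lay above 1 for 72 of the 82 genes and above 2 for 38. Requiring 10 counts in both libraries, a choice made after the data were seen, left 66 members, of which 50 were raised, where 18.7% of all genes were. Summed over all genes of the family, *flp* RNA stood at 1198 TPM in the PAR-XL input and 329 TPM in the cXL input. Summed *nlp* RNA stood at 2192 and 784 TPM.

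The largest *flp* difference was that of *flp-20*, a gene of the touch receptor neurons. It had 37.2 TPM in total RNA, 42.1 TPM in the PAR-XL input, and 2.53, 0.98 and 0.63 TPM in the cXL inputs of *gld-1::gfp*, *gfp::lin-41* and N2 worms. The relative ratio of PAR-XL to cXL input was 12.5 (6.17 to 25.2), from 270 against 8 counts. *flp-1* was at 4.01 (3.43 to 4.68), from 1702 against 176 counts. *flp-16* was at 5.36 (4.04 to 7.11) and *flp-18* at 2.70 (2.29 to 3.20). *flp-9*, at 1.63 (1.42 to 1.88), was one of the 6 *flp* genes that passed the filter and stayed within 2-fold. On either side of the threshold, *flp-24* had 1.96 and *nlp-62* had 2.02.

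Among *nlp* genes, *nlp-43* (12.4, 4.58 to 33.6) and *nlp-29* (9.29, 4.78 to 18.1) had the highest relative ratios, leaving aside *nlp-34*, which had no count in the cXL input and for which only a lower bound can be given. *nlp-12*, the cholecystokinin-like peptide gene of the stretch-sensing neuron DVA, was at 7.90 (4.85 to 12.9), from 45.5 TPM against 4.31 TPM. *nlp-49* was at 4.18 (3.52 to 4.95). The gene with the most counts, *nlp-40*, was within 2-fold at 1.83 (1.72 to 1.94). The *nlp* genes nearest to 1 or below it were *nlp-31* (1.01), *nlp-36* (0.938), *nlp-24* (0.898) and *nlp-27* (0.638, 0.561 to 0.725), all of them among the 6 highest *nlp* genes by mean level. Of the other 2, *nlp-33* was raised at 2.89 (2.22 to 3.76).

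Transcript length and the length setting of the quantification moved with this result. Transcript length minus the effective length that kallisto used, which follows the mean fragment length set for a library, was 150 bases for total RNA, 220 for the PAR-XL input and 285, 301 and 313 for the cXL inputs of *gld-1::gfp*, *gfp::lin-41* and N2 worms. Among all genes under 400 bases, 50.9% were raised, and among genes of 1000 bases and over, 18.9% were. All 6 members under 400 bases that passed the filter were raised, 33 of 40 with 400 to under 600 bases (30.5% of all genes of that length), and 21 of 34 with 600 to under 1000 bases (26.0% of all genes of that length). Of the 36 members with 600 bases or more, 22 were raised, where 20.5% of all genes of that length were, and their median relative ratio was 2.20. Across the 82 members, Spearman's rho of length and relative ratio was -0.34. The part of fragment length in the values of the shorter genes was not tested.

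**Figure D2:**
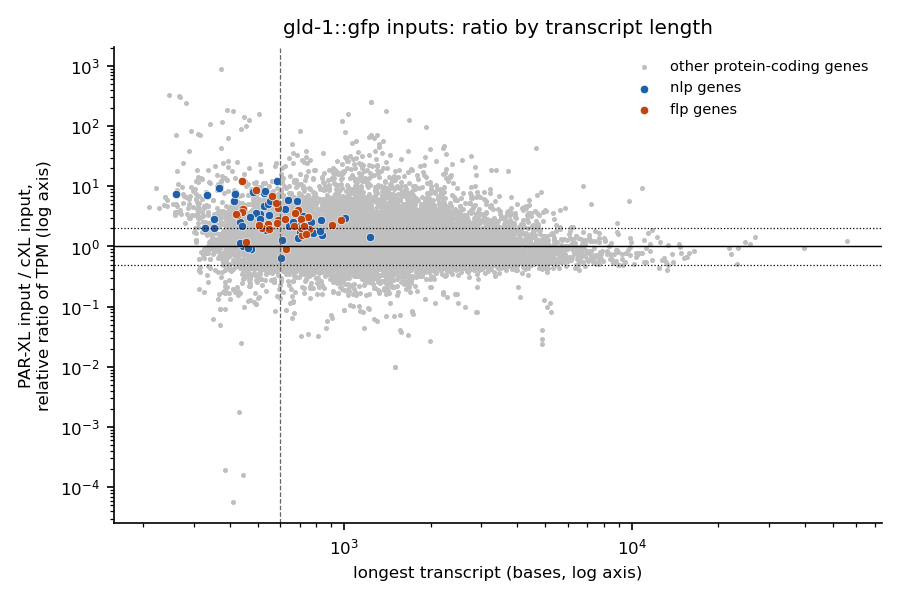
Relative ratio of PAR-XL to cXL input of *gld-1::gfp* worms against the length of the longest transcript, both on log axes, 1 point per gene that passed the filter. Dotted lines mark 2 and 0.5 and the dashed line marks 600 bases. 22 of 36 members to the right of the dashed line lie above 2.

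The genes that make, carry and sense neuropeptides had lower medians in this comparison than either family, a difference that was not tested. They were also longer, with median lengths of 1780 (processing enzymes), 2500 (dense core vesicles) and 1314 bases (receptors). The medians were 587 bases for *flp* and 493 for *nlp*, and the part of length in the difference was not tested. Of 11 processing enzyme genes, 2 were raised, *sbt-1* (2.06, 156 against 56.6 TPM) and *pghm-1* (2.01), and the median was 1.42. *egl-21* was at 1.64 and *bli-4* at 0.742. None of 10 dense core vesicle genes was raised, with *ida-1* at 1.84 and *unc-108* at 1.23. Of 78 neuropeptide receptor genes that passed the filter, 31 were raised and 1, *trhr-1*, was lowered, with a median of 1.77. The other secreted peptide genes (insulin-like *ins*, *pdf*, *daf-28*, *ntc-1* and *snet-1*) had 16 of 20 raised and 1 lowered, and a median of 2.85. Their median length was 419 bases. *pdf-1*, the gene of the pigment-dispersing factor peptides, was at 3.95 with 70.3 against 13.3 TPM, and *ins-27* at 10.2.

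Markers of tissues were set beside these values. Of 14 neuron markers 1, *unc-25*, was raised, with a median of 1.41, and *snb-1* (synaptobrevin) was at 1.65. Their median length was 1697 bases. Of 7 epidermis markers 5 were raised, with a median of 5.98, among them the cuticle collagen gene *rol-6* (relative ratio with an interval of 4.67 to 7.71), while the adult collagen gene *col-19* was at 0.878. None of 7 intestine or 6 muscle markers was raised or lowered, with medians of 1.16 and 0.882. Of 8 germline markers, 0 were raised and 6 lowered, with a median of 0.455, and their summed level was 2230 TPM in the PAR-XL input and 3650 TPM in the cXL input. The part of tissue composition in the neuropeptide values was not tested.

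**Figure D3:**
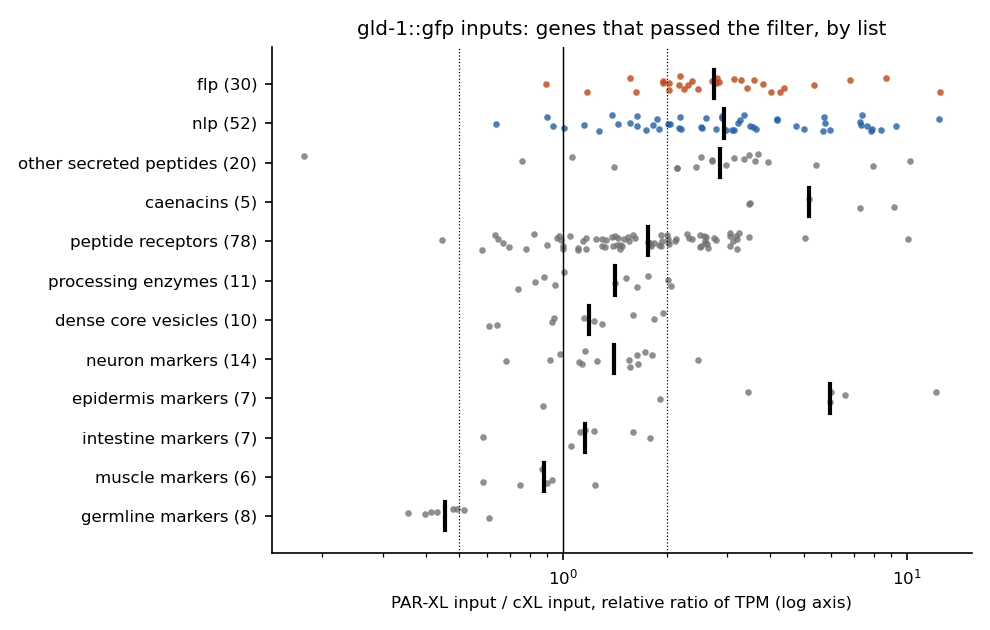
Relative ratio of PAR-XL to cXL input of *gld-1::gfp* worms (log axis) for genes that passed the filter, by list, with their number in brackets. Black bars are medians, which are 2.74 for *flp*, 2.93 for *nlp*, 1.41 for neuron markers and 0.455 for germline markers. Dotted lines mark 2 and 0.5.

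The *nlp-29* cluster split in this comparison. Its 6 genes lie on chromosome V of WBcel235 between 3978829 and 3989770. In order they are *nlp-34* (minus strand), *nlp-31*, *nlp-30*, *nlp-29*, *nlp-28* and *nlp-27* (plus strand). *nlp-29* and *nlp-31* code for antimicrobial peptides of the epidermis, and *nlp-29* is known for its induction by fungal infection and wounding. *nlp-29* had 196 TPM in total RNA, 62.3 TPM in the PAR-XL input, and 5.01, 9.21 and 1.05 TPM in the cXL inputs of *gld-1::gfp*, *gfp::lin-41* and N2 worms. *nlp-28* had 159, 89.8, 9.22, 7.71 and 0 TPM. *nlp-34* had 179 and 43.1 TPM in total RNA and PAR-XL input, from 344 and 66 counts, and no count in any cXL input. These 3 genes were highest in total RNA, lower in the PAR-XL input and lowest in the cXL inputs. The relative ratio of *nlp-34* in the PAR-XL over the cXL input was at least 7.35, with the floor set at 3 counts in the cXL library. Its transcript has 260 bases, that of *nlp-28* 333 and that of *nlp-29* 368, against 446 for *nlp-31*, 603 for *nlp-27* and 718 for *nlp-30*. Of all genes under 400 bases, 50.9% were raised in the PAR-XL over the cXL input. In the PAR-XL input over total RNA, 17.8% of them were lowered. The length setting rose in the same order, from 150 bases (total RNA) to 220 (PAR-XL input) and 285 to 313 (cXL inputs). The part of length in the levels of these genes was not tested.

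Of the other 3 genes of the cluster, *nlp-30* had the same order of levels and *nlp-31* and *nlp-27* did not. *nlp-31* had 128, 70.4, 52.1, 117 and 50.2 TPM in the same order of libraries. *nlp-27* had 134, 52.7, 61.7, 80.1 and 63.7 TPM. Both lay in the same range in the cXL inputs and the PAR-XL input, apart from the higher *nlp-31* value in *gfp::lin-41* worms. *nlp-30* had 29.2, 10.4, 2.41, 5.35 and 2.07 TPM, and its relative ratio of PAR-XL to cXL input was 3.22 (2.04 to 5.08). These genes resemble one another in sequence, and the estimated counts of *nlp-28* and *nlp-29* were not whole (tolerance 0.01) in total RNA, where kallisto had divided reads between transcripts. The caenacins (*cnc*) are another family of antimicrobial peptide genes, with a median length of 302 bases. In the PAR-XL over the cXL input, 5 of 5 that passed the filter were raised, where 22.1% of all genes were. Their median of 5.19 is the value of *cnc-7*, a lower bound because this gene had 0 TPM in the cXL input. In the PAR-XL input against total RNA, 5 of 8 were lowered, where 6.05% of all genes were. Among all genes under 400 bases the shares were 50.9% raised and 17.8% lowered. The part of length was not tested.

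Between strains, the cXL inputs differed little in neuropeptide RNA. Against N2, the *gld-1::gfp* input had a median ratio over all genes of 1.00. Of 59 members that passed the filter, 2 were raised (4.57% of 11735 genes) and 1 was lowered (1.45% of all genes), with a median of 0.956. The raised genes were *nlp-33* at 3.70 (1.84 to 7.44), from 61 against 9 counts, and *nlp-51* at 2.20 (1.11 to 4.39). *nlp-18* was lowered at 0.466 (0.287 to 0.755), from 31 against 35 counts. *nlp-40* lay within 2-fold at 0.704 (0.650 to 0.763).

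Against the same N2 input, the *gfp::lin-41* input had a median ratio over all genes of 1.32. Of 59 members that passed, 3 were raised (6.31% of 11863 genes) and 2 were lowered (2.32% of all genes), with a median of 0.937. The raised genes were *nlp-47* at 3.15 (1.21 to 8.20), *nlp-51* at 2.36 (1.18 to 4.72) and *nlp-33* at 2.17 (1.04 to 4.54). *flp-8* (0.474, 0.316 to 0.709) and *nlp-7* (0.498, 0.275 to 0.901) were lowered. All 5 had 54 counts or fewer in each library. In both strain comparisons the values of *nlp-33* and *nlp-51* rest on 9 and 10 counts in the shared N2 library. *nlp-33* has a transcript of 352 bases. Of all genes under 400 bases, 43.9% were raised in *gld-1::gfp* over N2 and 35.4% in *gfp::lin-41* over N2.

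In the elutions, neuropeptide RNAs were followed as transcripts that no probe was meant to retrieve. Few of their reads were counted. A count was found for 75 of 102 genes after PFA-XL and for 66 after PAR-XL. With *gld-1* probes in N2 worms it was 42, and in the other 4 elutions 9 to 26. Of the members, 19 had no count in any of the 7 elutions. Human RNA, which the authors added to the elutions before RNA isolation, took 66.6% to 96.5% of the TPM and limits the worm counts. The share of all protein-coding genes with a count was not computed. Under the floor of 3 counts, a gene without counts could still hold up to 23.0 CPM (counts per 1000000) in the *alg-1* elution, the shallowest, and up to 0.862 CPM in the PFA-XL elution, the deepest.

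Most neuropeptide RNAs that passed the filter were lower in the PAR-XL elution of *gld-1::gfp* worms than in the PAR-XL input. Per the study's description, this input and this elution came from separate pulldown experiments. By the paper's methods, ribosomal RNA was removed with a RiboMinus kit from this elution and with RNase H from inputs. The differences between experiments, between depletion methods and between input and elution cannot be told apart. Whether the cXL inputs and elutions were paired is not given in the sources used here. The median ratio of all genes was 1.20. Of 36 members that passed the filter, 22 were lowered, where 28.1% of 7572 genes were, and 0 were raised, where 21.8% of all genes were. The median relative ratio was 0.343, at 0.307 for 15 *flp* and 0.416 for 21 *nlp* genes. With 10 counts in both libraries, 4 of 14 members were lowered, where 20.8% of all genes were, and the median was 0.691. The interval lay below 1 for 12 of the 36 genes and below 0.5 for 1, *nlp-40*. Among genes of 600 bases and more, 12 of 20 members were lowered, where 26.3% of all genes of that length were. The fragment setting was 317 bases for the elution and 220 bases for the input, and 65.5% of all genes under 400 bases were lowered.

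The gene with the most counts was *nlp-40*, at 79.7 TPM in the elution and 310 TPM in the input, a relative ratio of 0.214 (0.137 to 0.337) from 19 and 4130 counts. *flp-1* had 49.8 against 135 TPM, a ratio of 0.307 (0.165 to 0.572) from 10 and 1702 counts. The lowest ratios were those of *nlp-11* (0.0951, 0.0134 to 0.676), *flp-11*, the peptide gene of the sleep-promoting neuron RIS (0.114, 0.0160 to 0.811), and *flp-10* (0.120, 0.0168 to 0.852), each from 1 count in the elution. At the upper end and within 2-fold were *nlp-36* at 1.91 (1.39 to 2.63), *nlp-27* at 1.83 (1.18 to 2.82) and *nlp-33* at 1.72 (1.01 to 2.92). *flp-18* was the highest *flp* gene at 1.20 (0.810 to 1.77), from 26 and 802 counts.

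Genes of neuropeptide processing were split in this comparison. Of 10 processing enzyme genes that passed, with a median of 0.773, 4 lay above 1 and 4 were lowered, against 28.1% of all genes: *egl-3* (0.291), *egl-21* (0.266), *sbt-1* (0.280) and *pghm-1* (0.188), while *bli-4*, which acts in the epidermis, was at 1.52. Of 6 dense core vesicle genes that passed, *ida-1* was lowered at 0.334, *eipr-1* was raised at 5.78 and 4 lay within 2-fold. *pdf-1* was lowered at 0.325. Of 7 neuron markers that passed, 2 were lowered and 1, *unc-119*, was raised at 6.68. Of the other tissues, 6 of 7 intestine markers and 6 of 6 muscle markers were lowered, with medians of 0.270 and 0.344. The germline markers had 6 of 8 raised, with a median of 2.67. Whether tissue of origin set the neuropeptide values was not tested.

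Summed over all members, *flp* RNA was lower relative to the input than *nlp* RNA in 6 of 6 pulldowns, although the difference between the families was not tested. *nlp-27* and *nlp-36* carried much of the *nlp* sums. Without these 2 genes, a choice made after the data were seen, *flp* was still below *nlp* in each pulldown, but the *nlp* ratio in the *gfp::lin-41* pulldown was 0.837 (0.584 to 1.20) and that in the PAR-XL pulldown was 0.588 (0.505 to 0.684), which overlaps the *flp* interval. In the PAR-XL pulldown the relative ratio of summed TPM was 0.449 (0.379 to 0.531) for *flp* and 0.724 (0.636 to 0.826) for *nlp*. In the cXL pulldown of *gld-1::gfp* worms it was 0.782 (0.471 to 1.30) for *flp*, from 15 counts, and 1.53 (1.15 to 2.05) for *nlp*, from 46 counts. The intervals of the families did not overlap in the first pulldown and overlapped in the other. These intervals weigh all counts alike, while TPM gives a count of a short transcript more weight, so they are too narrow. In the cXL elution of *gld-1::gfp* worms *nlp-33* had 283 TPM from 4 counts and *nlp-40* 122 TPM from 7. In the *gfp::lin-41* pulldown the ratios were 0.608 (0.366 to 1.01) and 1.34 (1.04 to 1.72). In counts, without the length correction, both *nlp* values lay below 1, with 46 seen against 48.1 predicted in the former and 62 against 70.6 in the latter.

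The 3 elutions from N2 worms share 1 input. With *gld-1* probes the summed ratios were 0.649 (0.482 to 0.873) for *flp* and 0.840 (0.706 to 1.00) for *nlp*, while the medians over the members that passed the filter were 0.661 and 0.667. With *lin-41* probes they were 0.355 (0.201 to 0.627) and 1.03 (0.785 to 1.35). The *alg-1* elution held 3 *flp* and 13 *nlp* counts, and its intervals spanned 1 for both families. In estimated counts, without the length correction, the PAR-XL elution held 136 *flp* counts where the input predicted 411, a ratio of 0.331. It held 227 *nlp* counts where 610 were predicted, a ratio of 0.372. Over all 6 pulldowns the ratio of seen to predicted counts ran from 0.217 to 0.626 for *flp* and from 0.268 to 0.955 for *nlp*, and *flp* was below *nlp* in each.

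**Figure D4:**
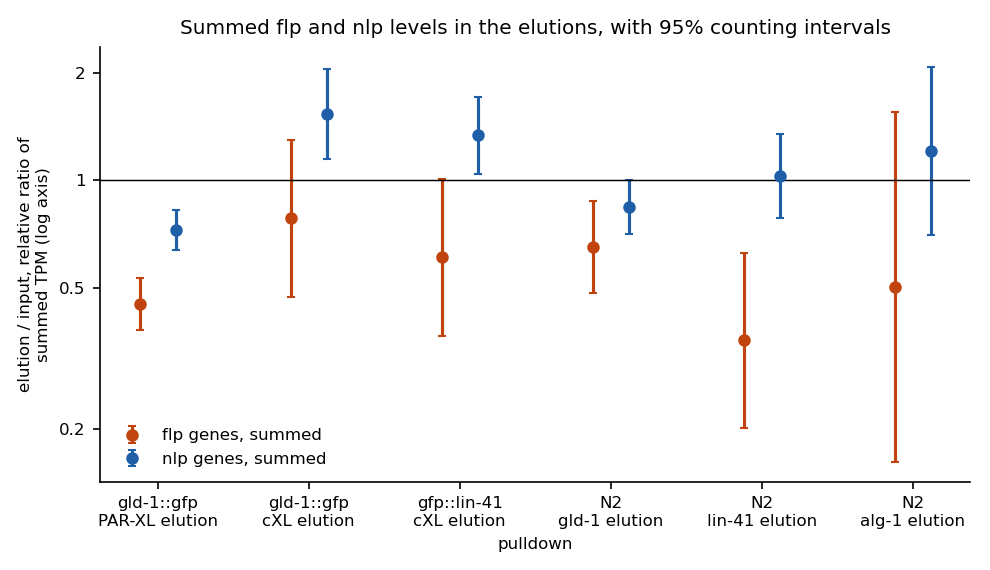
Relative ratio of elution to input of TPM summed over the 31 *flp* or 71 *nlp* genes in the 6 pulldowns that have an input (log axis), with 95% intervals for counting error. The intervals weigh all counts alike and are too narrow. The *flp* point lies below the *nlp* point in each pulldown, and the intervals are widest for the *alg-1* elution, with 3 and 13 counts.

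Among the cXL pulldowns, only the *gld-1* elution from N2 worms had more than 1 member past the filter. The median ratio of all genes was 0.643. Of 19 members that passed, 1 was raised (19.8% of 7903 genes) and 4 were lowered (22.3% of all genes), with a median of 0.667. The raised gene was *nlp-27* at 2.56 (1.79 to 3.65), from 35 and 220 counts. The lowered genes were *nlp-11* (0.192, 0.0268 to 1.38), *nlp-8*, a gene of the sleep-promoting neuron ALA (0.251, 0.0348 to 1.81), *flp-14* (0.384, 0.143 to 1.04) and *nlp-49* (0.398, 0.0981 to 1.62), all from 4 counts or fewer and with intervals that reach past 1. In the other 4 cXL pulldowns *nlp-40* was the single member that passed the filter. In the *gld-1::gfp*, *gfp::lin-41* and *alg-1* pulldowns its interval spanned 1, and in the *lin-41* elution from N2 worms it was lowered at 0.186 (0.0695 to 0.495), from 4 and 1094 counts.

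*nlp-27* stood apart from the other members in the elutions. It was the single gene of the 102 with a higher TPM in the elution than in the input in all 6 pulldowns. Of the members, 51 were higher in none of them. The matching shares of all protein-coding genes were not computed, so neither count can be read as particular to these genes. *nlp-27* was singled out after its values were seen, and the low counts of most members leave many of them at 0 in the shallow elutions. *nlp-27* had 115 TPM in the PAR-XL elution and 52.7 TPM in the PAR-XL input, 148 against 61.7 TPM in the cXL pulldown of *gld-1::gfp*, and 398 against 80.1 TPM in that of *gfp::lin-41*. In the N2 elutions it had 105 TPM with *gld-1*, 275 TPM with *lin-41* and 112 TPM with *alg-1* probes, against 63.7 TPM in the shared input.

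The relative ratios of *nlp-27* were 1.83 in the PAR-XL pulldown, 2.11 (0.998 to 4.45) in the cXL pulldown of *gld-1::gfp*, 4.42 (2.81 to 6.93) in that of *gfp::lin-41* and 3.39 (2.07 to 5.55) in the *lin-41* pulldown from N2 worms. These elutions held 21, 7, 20 and 17 counts of *nlp-27*, where the inputs predicted 17.6, 4.14, 5.99 and 5.81. In the *gld-1* elution from N2 worms, 35 counts stood against 37.6 predicted, so that *nlp-27* was not above its predicted count there. The *alg-1* elution held 3 counts of *nlp-27* against 2.34 predicted, a relative ratio of 2.85 (0.912 to 8.90). *nlp-40* went the other way, with a lower TPM in the elution than in the input in each of the 6 pulldowns. *nlp-36* had relative ratios from 0.667 to 2.14, which lay on both sides of 1.

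**Figure D5:**
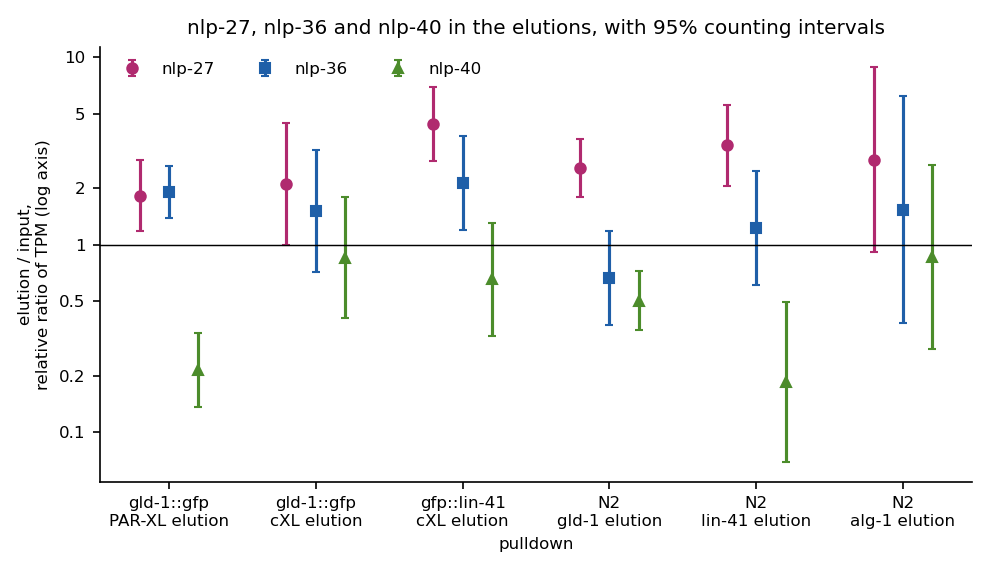
Relative ratio of elution to input (log axis) of *nlp-27*, *nlp-36* and *nlp-40* in the 6 pulldowns with an input, without a filter on counts, with 95% intervals for counting error. *nlp-27* lies between 1.83 and 4.42 and *nlp-40* between 0.186 and 0.860.

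The PFA-XL elution has no input here and was compared with the PAR-XL elution of the same strain. Worms of the PFA-XL pulldown grew without 4SU, and only their lysates were sonicated, so the chemistry, the culture and the sonication cannot be told apart. The median ratio of all genes was 1.07. Of 8 members that passed the filter, 0 were raised (4.75% of 6102 genes) and 2 were lowered (5.49% of all genes). With 10 counts in both libraries, 7 of 14 were lowered, where 7.24% of all genes were. The PAR-XL elution held 806595 counts and the PFA-XL elution 3480640, so this choice admits genes by a high count in the denominator. Such a selection favours low ratios, and nothing is concluded from the 7 of 14. *flp-14* was at 0.255 (0.136 to 0.479), from 21 counts after PFA-XL and 18 after PAR-XL in libraries of unequal depth. *nlp-33* was at 0.415 (0.218 to 0.792), with 139 and 314 TPM. *nlp-40* (1.64, 1.01 to 2.64) and *nlp-27* (1.51, 0.954 to 2.38) were the highest. Summed TPM over all members was 362 after PFA-XL against 645 after PAR-XL for *flp* and 1314 against 1906 for *nlp*.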

How the data were processed

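RNA of 12 libraries was sequenced after ribosomal RNA depletion. The paper's methods name RNase H with oligonucleotides against worm ribosomal RNA for inputs and against human ribosomal RNA for elutions. For the PAR-XL and PFA-XL elutions they name a RiboMinus kit. Depletion therefore differed between inputs and elutions, and its part in their ratios was not tested. The authors pseudo-aligned single-end reads with kallisto 0.43.1 to WBcel235 transcripts, any transgene, spike-ins and, for elutions, human transcripts. They deposited an estimated count and a TPM for every transcript. Each estimated count, as the authors deposited it, is not normalized, and the deposited TPM include ribosomal and human RNAs. Here these RNAs, spike-ins, 3 entries overlapping ribosomal RNAs and the target of each elution were removed, after which TPM were scaled back to a total of 1000000 and both units were summed per gene. Symbols matched 43693 of 46748 gene identifiers.

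The members and gene lists were chosen with earlier results of these data known. Ratios of TPM were divided by the median over protein-coding genes that passed a filter: 10 counts expected in the elution from its input or, between other libraries, 10 counts from the mean share at the shallower depth. Intervals (95%) join the Poisson errors of the 2 estimated counts as logarithms. For summed TPM all counts were weighed alike, which makes those intervals too narrow. A count of 0 was set to a floor of 3 counts. No test was run. Genes were named by mean level (10 *flp*, 10 *nlp*), as the *nlp-29* cluster, or as up to 3 extremes past 2-fold per direction and comparison. Genes named outside this rule were chosen after their values were seen. Alternatives were CPM, no division by the median, a pseudocount of 1 TPM, no filter, other scalings of summed TPM and 3 choices made after the data were seen. Scripts ran in Python 3.11.15 with scipy 1.17.1, pandas 2.3.3 and numpy 2.4.6, and matplotlib 3.10.9 drew the figures.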

Additional observations from a re-analysis of the deposited data

How the results depend on the processing

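The median relative ratio of the members, on the log2 scale, was recomputed for the 11 comparisons, and it moved by less than the median interval of single members under CPM, under a pseudocount of 1 TPM and among genes of at least 600 bases in all 11. Without division by the median of all genes, the value for PAR-XL input over total RNA went from 0.01 to -0.29, more than its reach. The other 10 comparisons each moved by less than their own reach. Without a filter, 4 pulldowns with 1 tested member changed: from -0.23 to 1.60 (*gld-1::gfp* cXL), from -0.61 to 1.46 (*gfp::lin-41*), from -0.22 to 1.96 (*alg-1*) and, in the opposite direction, from -2.43 to 1.13 (*lin-41* from N2). Most members then have no count in the elution and take the floor of 3 counts, which is above their level. With 10 counts in both libraries, a choice made after seeing the data, the *gfp::lin-41* value was 1.40 over 2 members. The *lin-41* value was 1.35, of opposite sign, because *nlp-40*, with 4 counts, is left out and *nlp-27* enters. Sign changes smaller than the reach were seen without a filter in the *gld-1* elution (-0.58 to 0.28). They were also seen without the division in *gfp::lin-41* over N2 input (-0.09 to 0.31) and with CPM in *gld-1::gfp* over N2 input (-0.06 to 0.04). PAR-XL input over total RNA changed sign with CPM (-0.175), a pseudocount (-0.02) and no filter (-0.009). For PAR-XL over cXL input the value ran from 1.18 to 1.92 over the alternatives.

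Counts of members moved by over 1.5 times as follows. The share of all genes called changes with the setting too, and it is given only where stated. A count without that share describes the processing and is not read as a result about the members. With CPM, PAR-XL input over total RNA had 16 lowered (6.88% of all genes) in place of 7 and 0 raised (2.82%) in place of 1. With the same scale *nlp-40* was lowered in the *alg-1* elution. *gld-1::gfp* and *gfp::lin-41* inputs over N2 then had 0 and 1 lowered in place of 1 and 2. Without division by the median, *gfp::lin-41* over N2 had 7 raised and 0 lowered in place of 3 and 2. The PAR-XL elution then had 3 raised in place of 0. The *gld-1* elution from N2 worms had 0 raised and 11 lowered in place of 1 and 4. PAR-XL input over total RNA had 0 raised (1.8% of all genes). With a pseudocount the *gld-1* elution had 7 lowered, *gld-1::gfp* over N2 1 raised and 0 lowered, and *gfp::lin-41* over N2 0 lowered. With 10 counts in both libraries, 4 of 14 members were lowered in the PAR-XL elution in place of 22 of 36, 7 of 14 in PFA-XL over PAR-XL elution in place of 2 of 8, and 1 in the *gld-1* elution in place of 4. Both strain comparisons then had 1 raised and 1 lowered, and the *gfp::lin-41* and *lin-41* elutions 1 raised and 0 lowered each. Where 1 library is much shallower, this choice selects genes by a high count in that library. At 600 bases and over, centred on those genes, 23 of 36 members were raised in PAR-XL over cXL input (21.6% of all such genes). In the PAR-XL elution 12 of 20 were then lowered. The 3 strain and total RNA comparisons then had 0 to 1 raised and 0 to 3 lowered, and PFA-XL over PAR-XL elution 1 lowered. Without a filter, 19 of 22 counts moved, with 23 raised and 45 lowered of 100 members in the PAR-XL elution, 31 and 25 of 83 in the *gld-1* elution, 5 and 38 of 80 in PFA-XL over PAR-XL elution, and 44 to 57 raised and 8 to 12 lowered in the other 4 elutions. Without a filter, PAR-XL input over total RNA had 3 raised (7.24% of all genes) and PAR-XL over cXL input 1 lowered (14.4%). *gld-1::gfp* over N2 then had 9 raised and 8 lowered, and *gfp::lin-41* over N2 6 raised. Without *nlp-27* and *nlp-36*, the summed *nlp* ratio of the *gfp::lin-41* pulldown went from 1.34 to 0.837. Summed TPM moved by more than counting error with ribosomal RNAs kept (23 of 24 values), with the target kept (12) and over protein-coding genes only (6).

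No paired analysis was possible because each condition has 1 library, and for the same reason no library could be left out. Depth limits the elutions most: 9 to 75 of the 102 genes were counted in them.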
